A study of Homo sapiens with 6 samples.

Results

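Epithelial junction genes are the coding genes for the claudins, cadherins, catenins, desmosomal proteins and tight junction proteins that hold neighbouring epithelial cells together. They were chosen by gene symbol alone, with no measured value: *CLDN*, *CDH* and *TJP* followed by a number, *OCLN*, *F11R*, *EPCAM*, *DSG1* to *DSG4*, *DSC1* to *DSC3*, *DSP*, *PKP1* to *PKP4*, *JUP*, *CTNNA1* to *CTNNA3*, *CTNNB1*, *CTNND1* and *CTNND2*. The rule found 72 genes among the 60480 gene identifiers of the count table, of which 19905 are typed there as coding. These 72 are 24 claudins, 5 genes of the *OCLN*, *F11R* and *TJP* group, *EPCAM*, 23 cadherins, 6 catenins, 7 desmosomal cadherins and 6 genes of the desmosomal plaque.

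The study asked which transcripts change when IGF2BP3, an RNA-binding protein described as a reader of m6A (a methyl mark on adenosines of mRNA), is depleted from adenocarcinoma of the esophagogastric junction (AEG). Bulk RNA-seq was done on OE-19, an AEG cell line derived from the gastric cardia and grown in RPMI1640 with serum, with 3 libraries from cells carrying a control shRNA (titled shControl, with Puro names in the table) and 3 libraries from cells carrying an shRNA against *IGF2BP3* (IGF2BP3 KD). Neither the labels nor the methods say whether libraries of a group came from separate cultures or whether the 3 KD libraries carry the same shRNA. The p-values below therefore measure only the spread between these libraries, which may be technical. Both groups share the cell line, and the shRNA was the difference between them that the labels name.

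Counts per library were 53424071 to 69989087. *IGF2BP3* itself had 7416, 7363 and 6532 counts in the control libraries and 777, 792 and 794 in the KD libraries, a log2 fold change of -3.03 ± 0.06 (SE, edgeR adjusted p = 3.1e-10). All 5 epithelial markers examined (*KRT8*, *KRT18*, *KRT19*, *EPCAM* and *CDH1*) were abundant in each library. Of 14 gastrointestinal columnar markers, 12 had a mean over the 6 libraries of at least 1 CPM (counts scaled to library size with TMM factors), while *CDX1* was at 0 and *KRT20* near 0. Markers of other cell types were mostly near 0: 1 of 6 for squamous epithelium (*KRT4*), 1 of 7 for fibroblasts (*COL1A1*), 1 of 4 for immune cells (*CD68*) and 0 of 4 for endothelium had such a mean. *KRT13*, a further squamous marker, had means of 0.897 CPM in control and 1.10 CPM in KD libraries.

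In epithelial cells, tight junctions seal the space between cells. Claudins and occludin span the membrane there, and the *TJP* proteins (ZO proteins) tie them to actin. Adherens junctions below them join cells through cadherins, whose tails bind β-catenin and p120-catenin, and α-catenin couples this complex to actin. Desmosomes are spot-like anchors in which desmogleins and desmocollins bind plakoglobin (*JUP*), plakophilins and desmoplakin (*DSP*), which holds keratin filaments. In gastrointestinal columnar cells E-cadherin (*CDH1*) and LI-cadherin (*CDH17*) are both known components of the cell membrane.

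Short words in the 3′ UTRs of the members are shown here because an earlier analysis of these same data linked 2 words of 7 bases to the direction of change. They are a description and lend no independent support to that link. The word GATTACT was found on the sense strand in the 3′ UTRs of 7.82% of 13588 tested coding genes with a 3′ UTR of at least 50 bases, and ACACATC in 9.66% (GENCODE v44 on hg38). Among the 70 members with such a 3′ UTR, 4 held GATTACT (*CTNNA1*, *CLDN12*, *CDH6* and *CDH19*) and 7 held ACACATC (*F11R*, *CDH11*, *DSC2*, *CDH4*, *CLDN22*, *CDH8* and *CDH7*). The sites in the called members are given 5′ to 3′ on the strand of the gene, with the word in capitals and 10 bases on each side.
CTNNA1, chr5:138934882-138934908, plus strand: ccttatttgtGATTACTgtagtgattg
CLDN12, chr7:90413926-90413952, plus strand: gtatgttgaaGATTACTttcttttgtg
F11R, chr1:160995772-160995798, minus strand: tggtcaattaACACATCaccatttttg
CDH11, chr16:64946522-64946548, minus strand: ttctcttcacACACATCttctaaaaaa
The *CTNNA1* site starts at base 803 of a 3′ UTR of 945 bases (ENST00000302763.12), and a further GATTACT starts at base 827. The *CLDN12* site starts at base 525 of 2543 (ENST00000496677.6), the *F11R* site at base 3083 of 3660 (ENST00000368026.11) and the *CDH11* site at base 1065 of 3850 (ENST00000268603.9). Each lies within a single exon. Across all tested coding genes, 35.4% of those with GATTACT were lower and 6.77% higher after KD, and 10.7% of those with ACACATC were lower and 28.4% higher.

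Of the 72 members, 43 had enough counts to be tested and 29 did not. The 29 were 14 cadherins, 12 claudins, *CTNND2*, *DSC1* and *PKP1*, of which 10 had 0 counts in every library and 21 had at most 5 in any library, with 21 as the highest count of all. N-cadherin (*CDH2*), a cadherin of neural and mesenchymal cells, had 1 count in all 6 libraries together, and the endothelial *CDH5* and *CLDN5* had at most 5 and 21 in any library. OE-19 cells thus carried a subset of the junction repertoire, in which control means of the tested members ran from 0.0277 (*CDH26*) to 1631 (*JUP*) CPM per kilobase of exons, as the plot of levels shows. Levels of different genes are compared only per kilobase, of the union of a gene's exons unless stated.

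**Figure D1:**
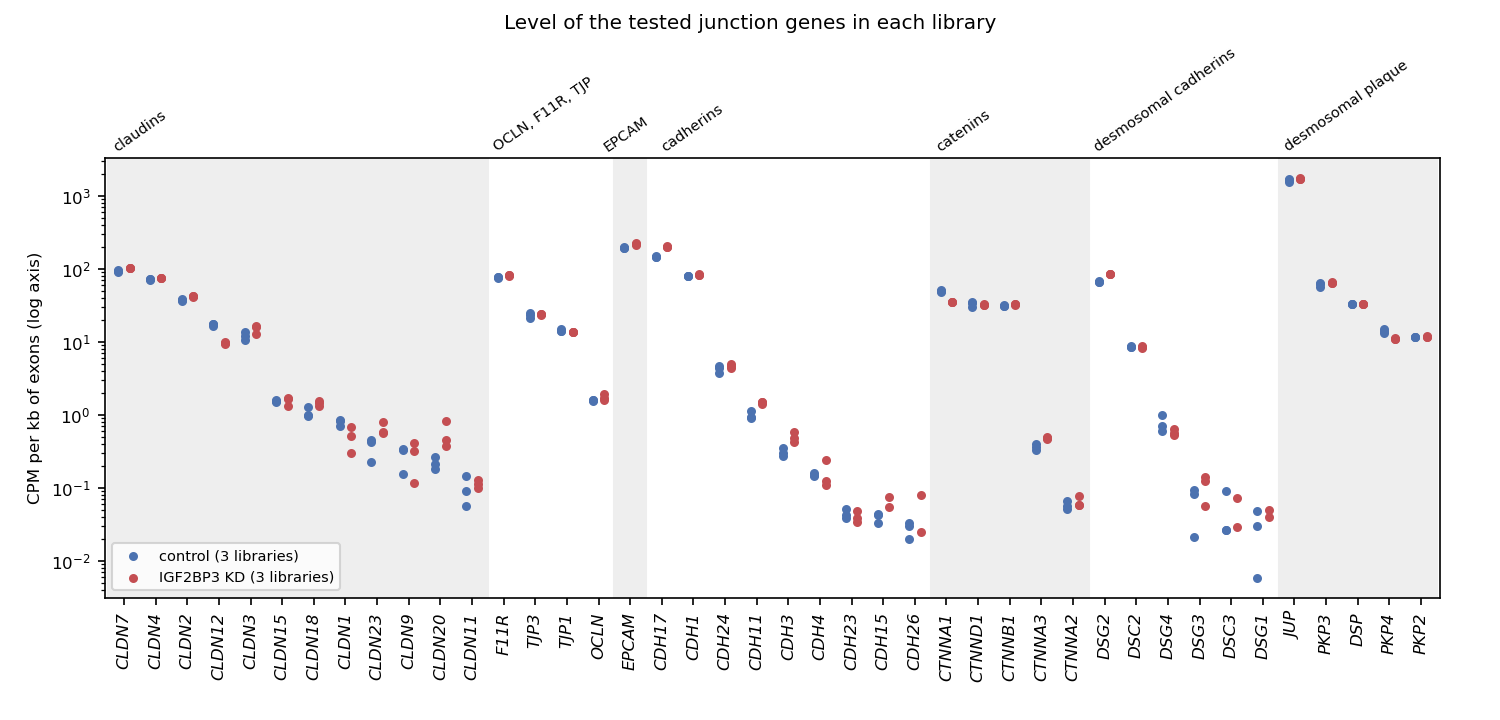
The plot gives, for 42 of the 43 tested junction genes, CPM per kilobase of exons on a log axis in each of 3 control (blue) and 3 IGF2BP3 KD (red) libraries, grouped by role and ordered by the control mean. *JUP* stands highest at a control mean of 1631, 4 values of 0 are not drawn, and for most genes the colours sit at nearly the same height.

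The highest junction transcript by far was *JUP*, the plakoglobin shared by desmosomes and adherens junctions, with 7675, 8235 and 8271 CPM in control and 8371, 8311 and 8539.5 CPM in KD libraries. It took 0.806% of all counts in control cells and ranked 5 among all genes by CPM. All 3 KD libraries lay above the control libraries, but the log2 fold change of 0.06 (95% interval 0.004 to 0.117) missed the threshold (edgeR adjusted p = 0.13). *EPCAM*, *CDH17*, *CLDN7* and *CDH1* followed at control means of 194, 147, 93.7 and 79.6 CPM per kilobase of exons. This order depends on the length used. Per kilobase of the main transcript *CLDN4* (199) stood between *EPCAM* (306) and *CDH17* (156), and *CTNNA1* (117) and *DSG2* (110) stood above *CDH1* (101).

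Among the 43 tested members, 3 were lower (6.98%) and 9 higher (20.9%) in IGF2BP3 KD cells at an edgeR adjusted p under 0.05, and 31 were not called. Over all 19778 tested genes 10.6% were lower and 9.87% higher, and over tested coding genes 14.3% and 13.0%. The same shares stand beside the counts by role below, each of which rests on few genes. Of the 25 members with a mean of at least 10 CPM, 3 were lower (12%) and 7 higher (28%), against 19.7% and 16.6% of coding genes at that level. The groups did not overlap for 22 of the 43 members (51.2%), against 35.8% of all tested genes. That background also holds genes not typed as coding and was not matched for level. The median log2 fold change of the members was 0.087, with 31 above 0 and 12 below. It was 0.0098 for all tested genes and -0.0016 for tested coding genes. At a mean of at least 10 CPM it was 0.057 for members and -0.013 for coding genes. The lower genes were *CLDN12*, *CTNNA1* and *PKP4*, and the higher ones *CDH17*, *DSG2*, *CDH11*, *CDH3*, *CTNNA3*, *CLDN2*, *EPCAM*, *CLDN7* and *F11R*. In bulk RNA a change of RNA per cell and a change in the share of cells that express a gene cannot be told apart.

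**Figure D2:**
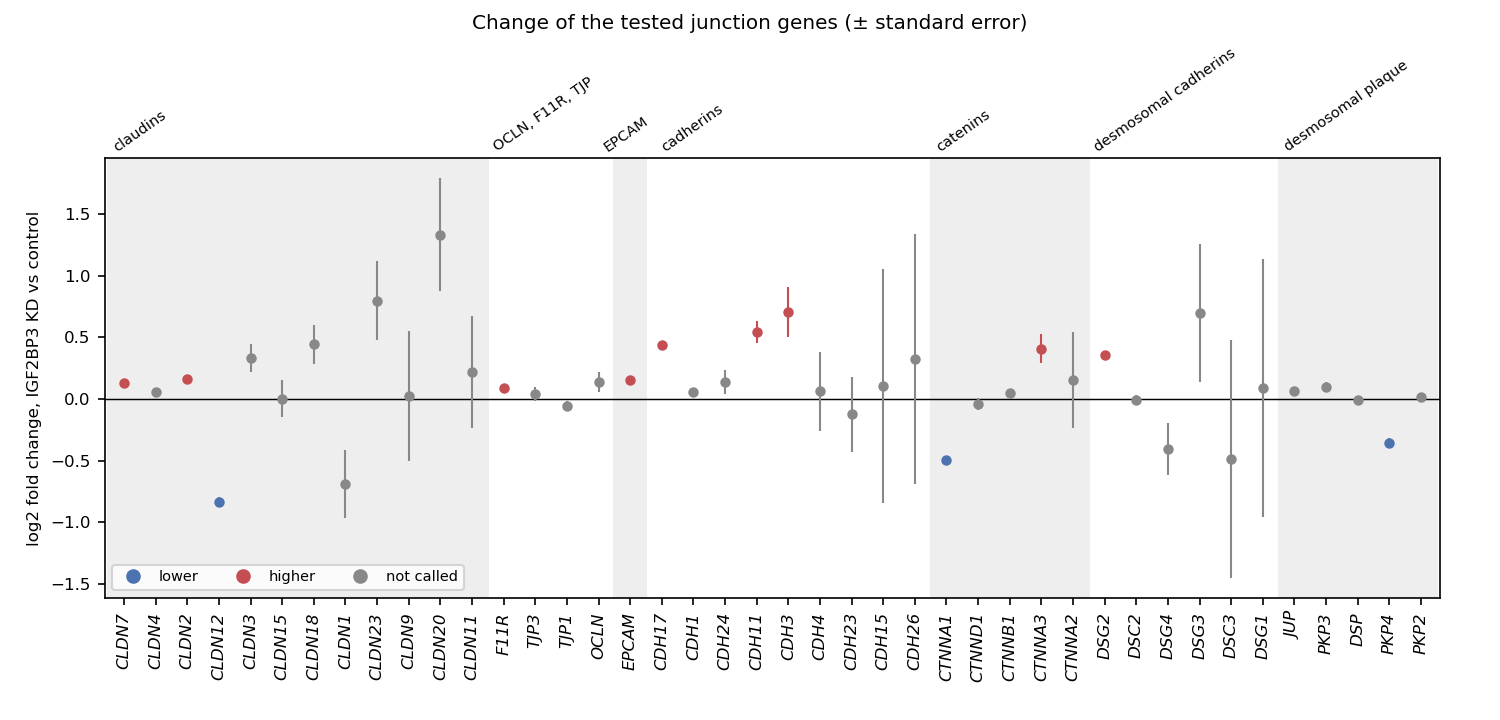
The plot gives the log2 fold change, IGF2BP3 KD against control, of 42 of the 43 tested junction genes with its standard error from edgeR, blue where lower, red where higher and grey where not called. The 3 lower genes belong to the claudins, the catenins and the desmosomal plaque, while *CDH17*, *CDH11* and *CDH3* stand above 0 with *DSG2*.

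Claudins form the paracellular seal or pores of tight junctions, and 12 of 24 were tested: 1 was lower and 2 were higher. *CLDN12*, a claudin linked to paracellular calcium transport, had 119, 119 and 112 CPM in control and 63.5, 67.2 and 65.2 CPM in KD libraries. The libraries of the groups lay far apart, and the change of -0.84 ± 0.04 on the log2 scale (SE, edgeR adjusted p = 3.49e-07), a fold of 0.56, was the largest of any called member. Per kilobase of exons *CLDN12* stood above *CLDN3*, a sealing claudin, in control cells (17.4 against 12.03) and below it in KD cells (9.74 against 15.2). Per kilobase of the main transcript *CLDN12* stayed above *CLDN3* in both groups, at 32.99 and 18.5 against 12.03 and 15.2, so the order depends on the length used. *CLDN12* shares 347 exon bases with *GTPBP10* on its strand, so its counts carry that uncertainty.

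*CLDN7*, a claudin that binds EPCAM, had the highest claudin level per kilobase of exons, with 228, 239 and 233 CPM in control and 259, 255 and 253 CPM in KD libraries. The KD libraries all lay higher, by 0.13 ± 0.03 on the log2 scale (SE, edgeR adjusted p = 0.00816). *CLDN2*, which forms cation pores, had 128, 132 and 125 CPM in control and 142, 145 and 144 CPM in KD libraries, a change of 0.16 ± 0.03 (SE, edgeR adjusted p = 0.00534). Libraries within a group lay close together, and both small rises exceeded their spread. *CLDN4*, which leads the claudins when levels are taken per kilobase of the main transcript, was not called (log2 fold change 0.05, 95% interval -0.001 to 0.110). *CLDN3* was not called at 0.33 (edgeR adjusted p = 0.0615), and it passed under DESeq2, over coding genes only, with at least 10 counts in every library, and without control replicate 2 or KD replicate 2. *CLDN20* (1.33), *CLDN23* (0.80), *CLDN18* (0.44) and *CLDN1* (-0.69) had no overlap between groups but missed the threshold, with levels under 6 CPM. *CLDN1* passed as lower without KD replicate 1, *CLDN18* as higher without control replicate 1, and *CLDN20* as higher over coding genes only and with at least 10 counts in every library. In those last settings 4 claudins were higher, with *CLDN3* and *CLDN20* added.

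The *OCLN*, *F11R* and *TJP* group held 1 higher gene of 5 and 0 lower ones by edgeR, with 0 lower at an unadjusted p under 0.05 and 0 by DESeq2. *F11R*, the junctional adhesion molecule JAM-A, had 391, 384 and 389.5 CPM in control and 411, 421 and 408 CPM in KD libraries. The groups did not overlap, and the rise was small, 0.09 ± 0.02 on the log2 scale (SE, edgeR adjusted p = 0.0247). The call was lost without control replicate 2 or 3 and without KD replicate 1 or 2, with adjusted p up to 0.119. *F11R* shares 1853 exon bases with a gene on its strand that GENCODE v44 tags as a readthrough. That gene took 0.279% to 1.35% of the summed counts. Summed with it, *F11R* rose by 0.087 (edgeR adjusted p = 0.0288). *TJP1* (-0.05, 95% interval -0.13 to 0.02), *TJP3* (0.04, -0.08 to 0.16) and occludin, *OCLN* (0.14, -0.04 to 0.31), were not called.

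*EPCAM*, the adhesion protein that marks epithelial cells and binds claudin-7, had 486, 462 and 470.0 CPM in control and 541, 514 and 523 CPM in KD libraries. Its level stood above those of the other members except *JUP* per kilobase of exons, and all KD libraries lay higher. The rise was 0.15 ± 0.03 on the log2 scale (SE, edgeR adjusted p = 0.00298), a fold of 1.11.

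Of 23 cadherins 9 were tested, 3 were higher and 0 lower by edgeR, with 0 lower at an unadjusted p under 0.05 and 0 by DESeq2. *CDH17*, the LI-cadherin of intestinal and metaplastic epithelium, led them with 583, 565 and 566 CPM in control and 759.5, 771 and 788 CPM in KD libraries. The lowest KD library lay well above the highest control library, and the change was 0.44 ± 0.02 on the log2 scale (SE, edgeR adjusted p = 6.54e-07), a fold of 1.35. Beside it, the summed CPM of the other 13 gastrointestinal columnar markers was 2120 to 2154 in control and 2258 to 2299.8 in KD libraries. Of the 12 of them that were tested, 5 were higher (*CDX2*, *MUC5AC*, *TFF3*, *MUC13* and *LGALS4*, by 0.14 to 0.59 on the log2 scale), *CEACAM5* was lower (-0.26), and *VIL1*, *HNF4A*, *GATA4*, *GATA6*, *TFF1* and *KRT20* were not called. The part of these markers in the rise of *CDH17* was not tested.

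*CDH11*, a cadherin best known from mesenchymal cells, was at a low level and had 14.98, 12.6 and 12.2 CPM in control and 19.7, 19.8 and 18.4 CPM in KD libraries. It rose by 0.54 ± 0.09 (SE, edgeR adjusted p = 0.00139), with no overlap between groups. The summed CPM of 7 fibroblast markers was 21.2 to 24.5 in control and 29.9 to 34.4 in KD libraries, nearly all of it *COL1A1*, and *COL1A2* and *LUM* were at 0 in every library. *CDH3*, the P-cadherin, had 1.94, 2.24 and 1.72 CPM in control and 2.76, 3.08 and 3.78 CPM in KD libraries (0.70 ± 0.20, SE, edgeR adjusted p = 0.0298). Its call was lost without control replicate 1 or 3 or KD replicate 2 or 3, with adjusted p up to 0.126, and with the replicate number as a block.

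E-cadherin, *CDH1*, the main cadherin of epithelial adherens junctions, had 481, 486 and 485 CPM in control and 495, 513 and 503 CPM in KD libraries. The KD libraries all lay higher, by 0.06 on the log2 scale (95% interval 0.005 to 0.110), and the gene was not called (edgeR adjusted p = 0.124). The difference between *CDH1* and *CDH17* in change was not tested. *CDH24* (0.14, 95% interval -0.07 to 0.35) was not called either, and *CDH4*, *CDH23*, *CDH15* and *CDH26* had means under 2 CPM.

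Catenins connect cadherins with the cytoskeleton, and 5 of 6 were tested: 1 was lower and 1 higher. *CTNNA1*, the α-catenin of epithelia, had the highest catenin level per kilobase of exons in control cells, with 430.4, 451 and 435 CPM, and had 312, 311 and 311 CPM in KD libraries. The change of -0.50 ± 0.03 on the log2 scale (SE, edgeR adjusted p = 4.89e-07), a fold of 0.709, was far beyond the spread. Its partner β-catenin, *CTNNB1*, had 367, 366 and 373 CPM in control and 383, 383 and 377 CPM in KD libraries, a difference of 0.05 (95% interval -0.01 to 0.10) that was not called. Per kilobase of exons *CTNNA1* fell from 49.7 ± 1.26 to 35.3 ± 0.0351 (SD, n = 3 each), beside 31.4 ± 0.338 and 32.4 ± 0.291 for *CTNNB1*. Per kilobase of the main transcript the order of the pair changed between groups, with *CTNNA1* at 117 and *CTNNB1* at 101 in control cells and at 82.9 and 104 in KD cells. On the opposite strand *CTNNA1* shares 445 exon bases with *LRRTM2*, which had at most 33 counts in any library.

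*CTNNA3*, an α-catenin best known from the heart, had 6.48, 5.48 and 5.91 CPM in control and 8.02, 8.07 and 7.63 CPM in KD libraries (0.41 ± 0.12, SE, edgeR adjusted p = 0.031). The groups did not overlap, but the call was kept only without control replicate 1 among the 6 fits that leave out a library, with adjusted p up to 0.116, and it was lost with the replicate block. *CTNNA2*, the neuronal α-catenin, was under 1 CPM.

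*CTNND1*, the p120-catenin that holds cadherins at the membrane, shared its counts with a readthrough gene in a single library. *TMX2-CTNND1*, which GENCODE v44 tags as a readthrough and which shares 5952 exon bases with *CTNND1*, had 3582 counts in control replicate 3 and 0 in the other 5 libraries. With a further readthrough gene of few counts, it took 11.8% of the summed counts there and at most 0.0393% elsewhere. Alone, *CTNND1* had 529, 525 and 459 CPM in control and 482, 491 and 499.8 CPM in KD libraries (-0.04, edgeR adjusted p = 0.636). Summed, it had 529, 526 and 521 against 482, 491 and 499.9 CPM, with no overlap between groups and a change of -0.10 ± 0.02 on the log2 scale (SE, edgeR adjusted p = 0.0149). Without control replicate 3, *CTNND1* alone was called lower too. With the sums, 4 members were lower and 9 higher, against 10.6% and 9.88% of all genes in that fit. This summing was chosen after the values were seen.

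**Figure D3:**
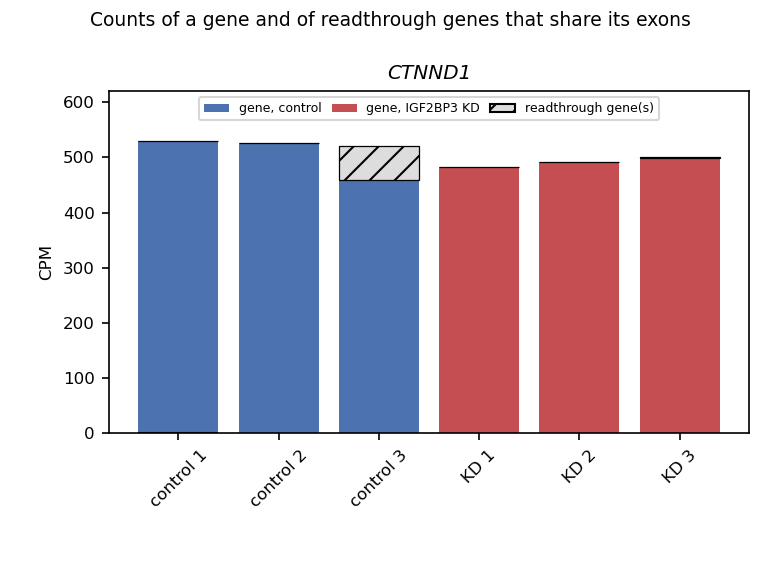
Bars give the CPM of *CTNND1* in each library, with the gene's own counts in colour and those of readthrough genes that share its exons hatched. The hatched share is 11.8% in control replicate 3, and with it the 3 control bars reach 521 to 529 CPM, above the KD bars at 482 to 499.9 CPM.

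Among desmosomal cadherins 6 of 7 were tested, 1 was higher and 0 were lower by edgeR, with 0 lower at an unadjusted p under 0.05 and 0 by DESeq2. *DSG2*, the desmoglein of simple epithelia, led them with 641, 624 and 622 CPM in control and 807, 796 and 806 CPM in KD libraries. Libraries of a group differed by a few percent and the groups by 0.35 ± 0.02 on the log2 scale (SE, edgeR adjusted p = 1.58e-06), a fold of 1.28. Its partner desmocollin, *DSC2*, had 109.7, 106 and 105 CPM in control and 103, 110.2 and 106 CPM in KD libraries, with overlap and a difference of -0.01 (95% interval -0.09 to 0.08). *DSG4*, *DSG3*, *DSC3* and *DSG1*, known from stratified epithelia and hair, were under 5 CPM and not called. *DSC2* holds ACACATC in its 3′ UTR, as does *CDH4*, and neither was called.

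The desmosomal plaque had 1 lower gene of 5 tested and 0 higher ones by edgeR, with 2 higher at an unadjusted p under 0.05 and 0 by DESeq2. Without control replicate 1, 2 or 3 or KD replicate 3, 1 was higher, *PKP1*. It was not tested with all 6 libraries, and passed the filter in those fits because fewer libraries were then required. *PKP4*, an armadillo protein of the plakophilin family found at desmosomes and adherens junctions, had 128, 133 and 141 CPM in control and 103, 106 and 104 CPM in KD libraries. All KD libraries lay lower, and the change was -0.36 ± 0.04 on the log2 scale (SE, edgeR adjusted p = 0.000106). Desmoplakin, *DSP*, had 454, 446 and 448 CPM in control and 452, 442 and 447 CPM in KD libraries (-0.01, 95% interval -0.06 to 0.04). *PKP2* (0.02, 95% interval -0.06 to 0.09) and *PKP3* (0.09, 0.002 to 0.187) were not called. The intervals of *DSP*, *PKP2* and *DSC2* end below the 0.30 at which that of *DSG2* begins, though these differences between genes were not tested.

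**Figure D4:**
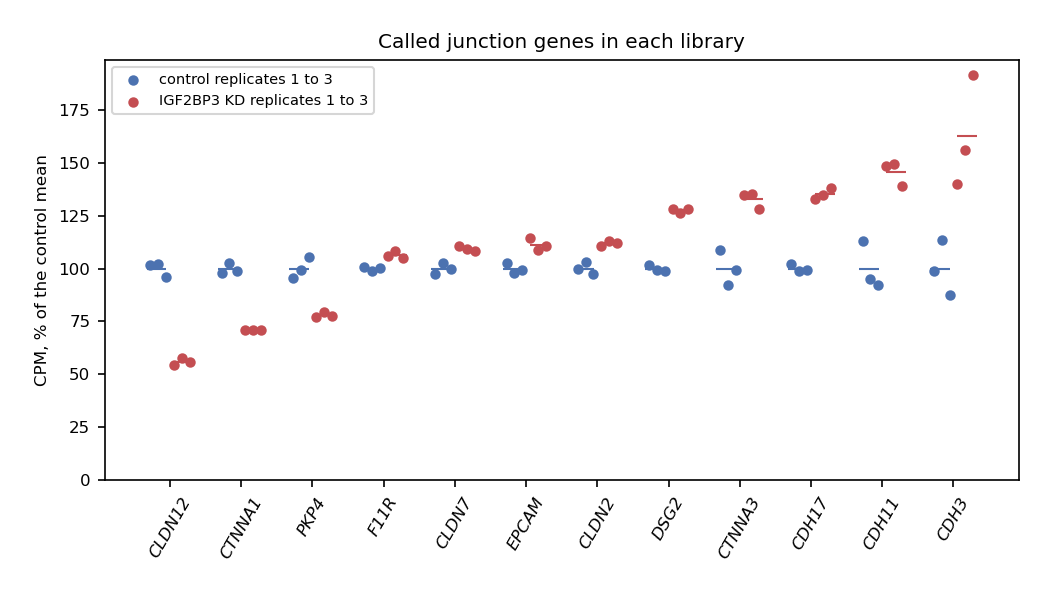
The 12 called junction genes are shown as CPM in percent of the control mean, with 3 control (blue) and 3 IGF2BP3 KD (red) libraries each and a line at each group's mean. KD libraries of *CLDN12*, *CTNNA1* and *PKP4* all lie below the control libraries, and those of the other 9 genes all lie above.

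Sorted by where the protein sits, the 57 genes for membrane proteins (claudins, *OCLN*, *F11R*, *EPCAM*, cadherins and desmosomal cadherins) had 30 tested members, with 1 lower, 8 higher and a median log2 fold change of 0.13. The 15 genes for cytoplasmic proteins (catenins, plaque and *TJP* proteins) had 13 tested members, of which 2 were lower and 1 higher, with a median of 0.017. With readthrough genes summed, 3 cytoplasmic members were lower (*CTNNA1*, *PKP4* and *CTNND1*) and 1 was higher. For comparison, 14.3% of tested coding genes were lower and 13.0% higher, and their median was -0.0016. At a mean of at least 10 CPM these values were 19.7%, 16.6% and -0.013. The classes were not matched for level. The classes were chosen with earlier results of these data known. Neither the difference between the classes nor that of each class from coding genes was tested.

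Genes around the junctions were counted in lists by function. Among 21 tested adherens junction partners, 7 were lower and 3 higher (median log2 fold change -0.074). The lower ones of smallest p were *ACTN1* (-1.11) and *ACTN4* (-0.26), α-actinins that cross-link actin, *VCL* (-0.67), the vinculin that binds α-catenin, and *AJUBA* (-0.44), a LIM protein recruited to α-catenin. *ACTN1* had 202, 206 and 203 CPM in control and 93.4, 94.6 and 94.7 CPM in KD libraries, a larger fold than any tested member that was called. *CTNNBIP1* (0.24), an inhibitor of β-catenin, *NECTIN2* (0.13) and *ABLIM1* (0.08) were higher. The count of 3 higher partners was 1 without control replicate 3 and without each of the KD replicates.

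Among 23 tight junction partners 4 were lower (17.4%) and 3 higher (13.0%), with a median of -0.018. The shares of tested coding genes were 14.3% and 13.0%. *PARD6B* (-0.71), *PARD3* (-0.21), *MAGI1* (-0.12) and *SYMPK* (-0.13) were lower, and *PRKCI* (0.39), the atypical protein kinase C of the same polarity complex as *PARD3* and *PARD6B*, *CGN* (0.30), the plaque protein cingulin, and *MPP5* (0.18), the scaffold PALS1, were higher. The 4 lower calls became 1 without control replicate 3 or KD replicate 2, and 2 without KD replicate 1. Among 13 desmosome and keratin anchor partners 4 were lower (30.8%) and 0 higher by edgeR (median -0.057). At an unadjusted p under 0.05 and by DESeq2, 0 were higher too. The lower ones were *PNN* (-0.24), *DST* (-0.14), *KRT18* (-0.07) and *KRT8* (-0.06), and 2 were left without control replicate 2 or 3, without KD replicate 2 or 3 and with the replicate block. Among 12 gap junction genes 3 were higher (25%), among them the connexins *GJB2* (0.52) and *GJB1* (1.02), with a median of 0.11. By edgeR, by DESeq2 and at an unadjusted p under 0.05, 0 were lower. Without KD replicate 2, 1 was lower.

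Regulators were counted in the same way. Of 23 proteases and regulators of junction proteins 8 were lower (34.8%) and 6 higher (26.1%), with a median of -0.059. The shares of tested coding genes were 14.3% and 13.0%. *RHOA*, the GTPase that sets actomyosin tension at junctions, had 421, 409.9 and 422 CPM in control and 168, 177 and 170.4 CPM in KD libraries, a fold of 0.411 (-1.28 ± 0.03, SE, edgeR adjusted p = 8.4e-10). Its effector kinase *ROCK1* (-0.31), the phosphatase *PTPN11* (-0.39) and the kinase *YES1* (-0.40) were lower too. *SPINT2* (0.23), a protease inhibitor, *PRSS8* (0.27), a membrane protease, and *NCSTN* (0.18), a γ-secretase subunit, were higher.

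Among 22 epithelial transcription and splicing factors 5 were lower (22.7%) and 1 higher (4.55%), with a median of -0.053. The shares of tested coding genes were 14.3% and 13.0%. The lower ones were *ELF3* (-0.27), *EHF* (-0.18), *GRHL3* (-0.45), *GRHL2* (-0.22) and *FOXA1* (-0.25), and *CDX2* was the higher one. Without control replicate 2, 2 factors were higher. The EMT list had 11 of 18 genes tested (median 0.34). Of these *TGFBI* was lower (-1.23) and *FN1* higher (0.72), 9.09% in each direction. The other tested genes of that list were not called, so its median rests mostly on genes without a call. The higher count of that list was 0 without control replicate 2 or KD replicate 2 or 3, and 2 without control replicate 3. *SNAI2*, *ZEB2*, *TWIST1*, *TWIST2* and *PRRX1* were too low to test.

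β-catenin also acts in Wnt signalling, and of 30 genes of the Wnt pathway and its targets 4 were lower and 4 higher, with a median of -0.0003. *NOTUM* (-0.49), *NKD1* (-0.18), *AXIN2* (-0.17) and *CCND1* (-0.16) were lower, and *NKD2* (0.72), *LEF1* (0.41), *ASCL2* (0.27) and *LGR4* (0.11) higher. With DESeq2 7 were lower and 4 higher, and the lower count was 3 to 6 when a library was left out. The higher count was 1 to 3 then, with 1 without control replicate 3 or KD replicate 1 and 2 without control replicate 2 or KD replicate 2. In the main fit 13.3% of this list were lower and 13.3% higher, near the 14.3% and 13.0% of all tested coding genes. *CTNNB1* itself was not called.

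**Figure D5:**
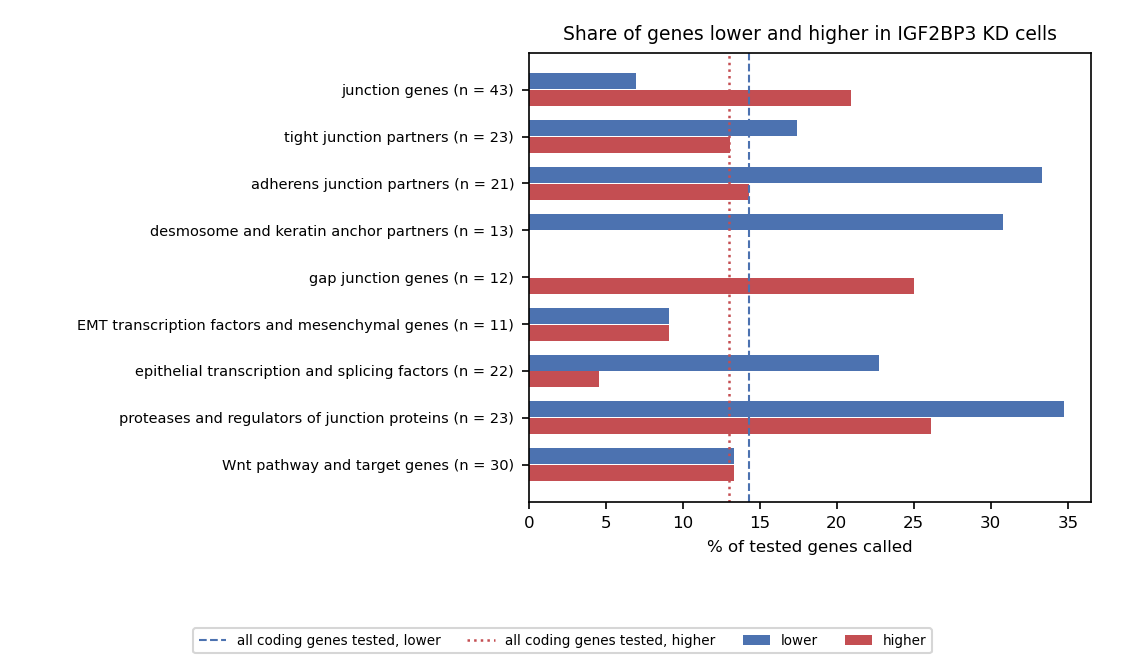
Bars give the percent of tested genes called lower (blue) or higher (red) in IGF2BP3 KD cells for the junction genes and 8 lists of genes by function, with n the number tested. The lines mark tested coding genes as a whole, 14.3% lower (dashed) and 13.0% higher (dotted), and the junction genes stand at 6.98% and 20.9%.

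The 3′ UTR words were set beside these calls as a description only. They came from an earlier analysis of these same data, so the counts below lend no support to them. Of all tested coding genes with GATTACT, 35.4% were lower and 6.77% higher. Of those with ACACATC, 10.7% were lower and 28.4% higher. Both tested members with GATTACT, *CTNNA1* and *CLDN12*, were lower, and *PKP4* was lower without it. Of 4 tested members with ACACATC, *F11R* and *CDH11* were higher and *DSC2* and *CDH4* were not called, while 7 of the 9 higher members lacked it. Among 155 tested partner genes 10 held GATTACT, of which 5 were lower (*RHOA*, *VCL*, *PARD6B*, *MAGI1* and *CCND1*) and 1 higher (*GJB1*). ACACATC was in 21, of which 5 were lower (*GRHL2*, *MAGI1*, *NKD1*, *PARD3* and *ROCK1*) and 4 higher (*GJB2*, *LGR4*, *NKD2* and *PRKCI*). *MAGI1* thus held both words.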

How the data were processed

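RNA was poly(A)-selected, prepared with a directional NEBNext kit and sequenced as paired reads of 150 bases. Per the labels, the authors used fastp, HISAT2 with hg38 and featureCounts, and deposited raw counts per gene. Versions, annotation release and strand setting are not given in the sources used here, so genes that overlap others are uncertain. Of 60612 rows, 132 repeats of 44 identifiers were left out. Counts were tested with edgeR 4.0.16 (R 4.3.3; TMM factors 0.992 to 1.01; filterByExpr, minimum count 10, minimum total 15; glmQLFTest; Benjamini-Hochberg over 19778 genes, threshold 0.05), tested first on simulated data. Libraries of a group differed by more than sampling noise (chi-square per degree of freedom 9.86 to 17.6), so none is a duplicate. The fit was unpaired. Positions, exon lengths and 3′ UTRs are from GENCODE v44, which holds all 72 members. Words were searched on the sense strand only.

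Members, partner lists and tests were chosen with earlier results of these data known. Named with each library's value are all called members and, in each role, the member of highest level per kilobase of exons. In each partner list up to 4 called genes of smallest p per direction are named, except items that are not reported here, and further genes were named after their values were seen. Alternatives were DESeq2 1.42.0, RLE scaling, other count filters, a block for the replicate number, fits without each library, coding genes only, the longest 3′ UTR and, added after the data were seen, counts of the members reported summed with readthrough genes. Computations used Python 3.11.15 with pandas 2.3.3.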

Additional observations from a re-analysis of the deposited data

How the results depend on the processing

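The count of lower junction genes was 3 in every planned setting that kept all 6 libraries, 3 to 4 when each library was left out in turn, and 4 with readthrough genes summed, where *CTNND1* was added. That sum changes only which counts belong to a gene. The count of higher genes was 9, and it was 10 with DESeq2, 9 with RLE scaling, 7 without a filter on low counts, 11 with at least 10 counts in every library, 11 over coding genes only, 9 with the sums, 7 with the replicate block and 7 to 10 when each library was left out. *CLDN12*, *CTNNA1*, *PKP4*, *CDH17*, *DSG2*, *CDH11*, *CLDN2*, *EPCAM* and *CLDN7* were called in the 6 fits without a library and in the 7 other settings. *CDH3* and *CTNNA3* lost their calls without a filter and under the block, and *F11R* without a filter. The cause was not tested. The log2 fold change of *IGF2BP3* ranged from -3.101 to -3.002 without a library. Deviations of same-numbered libraries from their group means correlated at r = -0.029, -0.092 and -0.077 over 14289 genes. Pairing by replicate number was thus not seen over these genes as a whole. This cannot exclude it for single genes, and the labels do not say whether samples were paired. Of the 14 members and *IGF2BP3* whose fold changes were refitted, none changed sign in these settings, and other named genes were refitted only as parts of counts. The longest 3′ UTR gave the same 4 members with GATTACT. Members under a mean of 2 CPM had standard errors up to 1.04 on the log2 scale, so changes there were not detectable at this depth unless large.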

Other observations

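*PKP1*, the plakophilin of stratified epithelia, did not pass the filter on low counts but had 0 counts in all 3 control libraries and 12, 12 and 9 counts in the KD libraries. Set against an assumed 3 counts in each control library, its mean CPM in KD libraries was 4.04-fold higher. That figure makes no allowance for the sampling of so few KD counts and is not a lower bound. Fitted without a filter it had an edgeR adjusted p of 0.025, and it was also called without control replicate 1, 2 or 3 or KD replicate 3. With a library left out the filter asks for fewer libraries, and *PKP1* passed it there only through KD libraries. As the gene was picked for its values, none of these fits is further support. It is named because its values stood out, and 5 identifiers of the whole table had 0 counts in each control library with at least 9 in each KD library, while 5 had the reverse. *KRT4*, another gene of stratified epithelia, had a mean of 1.21 CPM in control and 3.04 CPM in KD libraries, and the 6 squamous markers summed to 2.35 to 2.95 CPM in control and 4.51 to 5.75 CPM in KD libraries. Most of the rise of that sum was in *KRT4*. *KRT5* had means of 0.0114 and 0.0185 CPM and was not tested, and *KRT13*, *KRT14*, *TP63* and *DSG3* were not called.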
